A study of Mus musculus with 22 samples.

Results

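The 9 myelin genes described here are Mbp, Mog, Mag, Mobp, Cnp, Cldn11, Mal, Opalin and Ermn. They were taken by symbol, by a rule that uses no measured value though drawn up with earlier results of these data known, from 2 hypothalamic datasets: all 9 were among the 16304 genes counted in whole cells and among the 20668 genes counted in nuclei. The mice were 22 male ob/ob mice of 11 weeks, which lack leptin and are obese and diabetic, with 1 mouse per library. Each had a single intracerebroventricular (icv) injection into the lateral ventricle, either of 3 µg human fibroblast growth factor 1 (FGF1), a mitogenic growth factor, or of its vehicle, phosphate-buffered saline, and vehicle mice were pair-fed to the intake of FGF1 mice. Single nuclei were sequenced on Day 1 (3 FGF1 and 3 vehicle mice) and on Day 5 (2 FGF1 and 2 vehicle mice). Whole cells came from a separate Day 5 cohort (6 FGF1 and 6 vehicle mice) of another ob/ob line (B6.V-Lep ob/JRj, from Janvier, against B6.Cg-Lep ob/J, from Jackson, for nuclei) kept on another chow, so nuclei and whole cells were never compared by a test. The comparisons asked how the levels of the myelin genes in each cell type differed between FGF1 and vehicle mice at each time.

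Myelin is the stack of oligodendrocyte membrane that wraps axons and lets impulses travel fast. Oligodendrocyte precursor cells (OPC) carry little myelin RNA. They pass through a committed, premyelinating stage (COP) in which the first myelin genes come on, and then become oligodendrocytes, the cells that make the sheath. Mbp encodes myelin basic protein, which draws the cytoplasmic faces of the membrane together, and Mobp encodes a small basic protein of the same compact layer. The mRNAs of both are carried out into the cell's processes, and the Mbp gene also makes golli transcripts, which other cell types use. Cnp encodes a phosphodiesterase that keeps cytoplasmic channels open through the sheath. Mag is an adhesion receptor of the membrane that faces the axon, whereas Mog lies on the outermost surface of the sheath. Cldn11 forms the tight junctions between its layers. Mal is a proteolipid of membrane transport, Opalin a membrane glycoprotein of late oligodendrocytes and Ermn (ermin) a cytoskeletal protein of mature ones.

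The genes lie apart in the genome. In the GENCODE annotation of the mouse build GRCm38, which the authors also mapped to, Mbp spans 82475146 to 82585637 on the plus strand of chromosome 18, Mog 37010743 to 37023398 on the minus strand of chromosome 17, Mag 30899176 to 30914873 on the minus strand of chromosome 7 and Mobp 120149707 to 120181484 on the plus strand of chromosome 9. Cnp spans 100574904 to 100591729 on the plus strand of chromosome 11, Cldn11 31149920 to 31164324 on the plus strand of chromosome 3, Mal 127633226 to 127656695 on the minus strand of chromosome 2, Opalin 41061710 to 41077113 on the minus strand of chromosome 19 and Ermn 58045113 to 58052864 on the minus strand of chromosome 2. Annotated genes overlap Mbp (Rpl21-ps8), Mog (Gm22388), Cnp (Dnajc7) and Ermn (Galnt5) on the opposite strand and Mobp (Gm38642) on the same strand. Whole-cell counts covered exonic reads, and nuclear counts also covered introns, so a nuclear level includes unspliced RNA.

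The whole-cell dataset held 54890 barcodes with a median of 1117.5 to 2090 unique molecular identifiers (UMIs) per library, and the nuclear dataset 24965 barcodes with a median of 2029 to 3986. Of 53065 barcode sequences in whole cells 1791 occurred in more than one library, with at most 81 shared by any pair, and of 24645 in nuclei 318 did, with at most 32. Nuclei carry the authors' own labels (Olig and COP, called oligodendrocytes and OPC/COP here), whereas whole-cell clusters are numbered and were named here by marker genes. Clusters 2, 11 and 12 were oligodendrocyte-like: the summed level of 8 oligodendrocyte markers, none of them among the 9 genes, was 28228, 55771 and 30351 counts scaled to the same library total (CPM), against 234 to 579 in tanycyte, astrocyte and ependymal clusters. Cluster 9 was COP-like (COP markers 7986 CPM, oligodendrocyte markers 23023 CPM), and clusters 5 and 17 were OPC-like (OPC markers 3043 and 2629 CPM). Neurons and cells called as doublets had been removed from the whole-cell dataset before deposit, and no doublet caller had been run on nuclei. Since the study formed these clusters on the same cells and genes, levels in different clusters are a description. In nuclei, neuron markers summed to 12131 to 19225 CPM in each mouse's oligodendrocytes, above the 899 to 2320 CPM of the oligodendrocyte markers. In whole-cell oligodendrocytes they summed to 224 to 695 CPM. The part of this neuronal RNA in the nuclear results was not tested beyond the setting named beside them.

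Sequence ahead of the transcription start is shown for 4 genes whose levels are followed most closely below, Mal and Cldn11, which were called higher in oligodendrocytes of FGF1 mice on Day 5, and Mag and Mobp, which were not called there. The letters were read from RefSeq promoter windows on GRCm38.p6, which reach 250 bases upstream of each start, and letters inside the GENCODE gene models are left out. They are written 5′ to 3′ on the gene's strand. Capitals mark the core CTTTGT or its reverse complement ACAAAG, which transcription factors of the SOX family recognise, among them Sox10, a regulator of oligodendrocytes. The core was chosen after the sequences had been seen, and matches on both strands were counted.
Mal, chr2:127656696-127656945, minus strand: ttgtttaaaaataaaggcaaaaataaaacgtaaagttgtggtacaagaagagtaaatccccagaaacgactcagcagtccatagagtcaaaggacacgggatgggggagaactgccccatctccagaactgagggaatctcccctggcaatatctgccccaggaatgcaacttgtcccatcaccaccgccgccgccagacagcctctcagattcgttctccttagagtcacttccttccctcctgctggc
Cldn11, chr3:31149670-31149919, plus strand: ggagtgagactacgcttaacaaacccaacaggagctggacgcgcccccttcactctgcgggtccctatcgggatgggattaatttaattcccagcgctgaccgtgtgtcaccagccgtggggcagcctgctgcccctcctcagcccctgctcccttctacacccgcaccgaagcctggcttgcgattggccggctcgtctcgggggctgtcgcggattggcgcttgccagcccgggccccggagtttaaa
Mag, chr7:30914874-30915113, minus strand: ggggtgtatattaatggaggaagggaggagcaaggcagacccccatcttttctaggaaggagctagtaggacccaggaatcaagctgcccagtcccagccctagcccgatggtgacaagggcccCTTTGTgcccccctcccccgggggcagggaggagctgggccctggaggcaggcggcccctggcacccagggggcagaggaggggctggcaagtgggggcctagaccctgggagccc
Mobp, chr9:120149492-120149706, plus strand: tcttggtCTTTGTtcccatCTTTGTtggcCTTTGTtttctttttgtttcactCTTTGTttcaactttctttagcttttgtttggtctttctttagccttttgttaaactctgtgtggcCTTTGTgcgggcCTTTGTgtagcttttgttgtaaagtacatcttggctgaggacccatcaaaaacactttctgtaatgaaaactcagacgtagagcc
Of 32851 promoter windows of this length, 16.5% held the core at least 1 time and 1.74% at least 2 times. The Mobp window held it 6 times, at positions -243, -231, -221, -198, -132 and -120 from the RefSeq start, and no other window of the table held as many. Mag, Cnp and Opalin held it 1 time each, at -126, -167 and -139. The windows of Mog, Cldn11, Mal and Ermn did not hold these letters, and the window of the remaining gene was not examined. A match is a description of the letters and shows no binding.

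In vehicle mice the 9 genes shared a pattern over the whole-cell clusters. A UMI count of 3′ ends does not scale with transcript length and its capture differs between genes, so each gene is followed here across cell types. In oligodendrocytes the level per mouse was 5927 ± 1264 CPM for Mbp (mean ± SD, n = 6), 3279 ± 627 for Mobp, 2916 ± 339 for Cnp and 2869 ± 348 for Cldn11. It was 2448 ± 258 CPM for Mal, 1327 ± 82.1 for Mag, 998 ± 157 for Ermn, 974 ± 122 for Mog and 727 ± 129 for Opalin. The committed precursors held the genes to unequal degrees. Mbp (7386 ± 2271 CPM) and Cnp (2542 ± 516) were already close to or above the levels of oligodendrocytes in COP, and Cldn11 (1574 ± 835) and Mag (793 ± 488) lay between those and their OPC levels of 21.8 and 12.1. Mobp (433 ± 360 CPM), Mog (135 ± 54.7), Mal (79.8 ± 55.6), Opalin (37.5 ± 40.1) and Ermn (19.9 ± 24.0) stayed far below those of oligodendrocytes. In OPC, Mbp (1582 CPM), Mobp (315) and Cnp (203) were counted most, and the other 6 lay between 5.72 and 21.8 CPM. Among the oligodendrocyte clusters of vehicle mice, all 9 genes had their highest mean in cluster 11. Mag, for example, averaged 3162 CPM there, 1201 in cluster 2 and 1408 in cluster 12. For Ermn, at 1008, 995 and 997 CPM, and for Opalin between cluster 11 (1183 ± 224) and cluster 12 (1136 ± 184), the difference was far within the spread over mice. Cluster 18, which was left unnamed, held markers of both oligodendrocytes (18572 CPM) and OPC (2000.1 CPM) and Mbp at 3733 CPM.

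**Figure D1:**
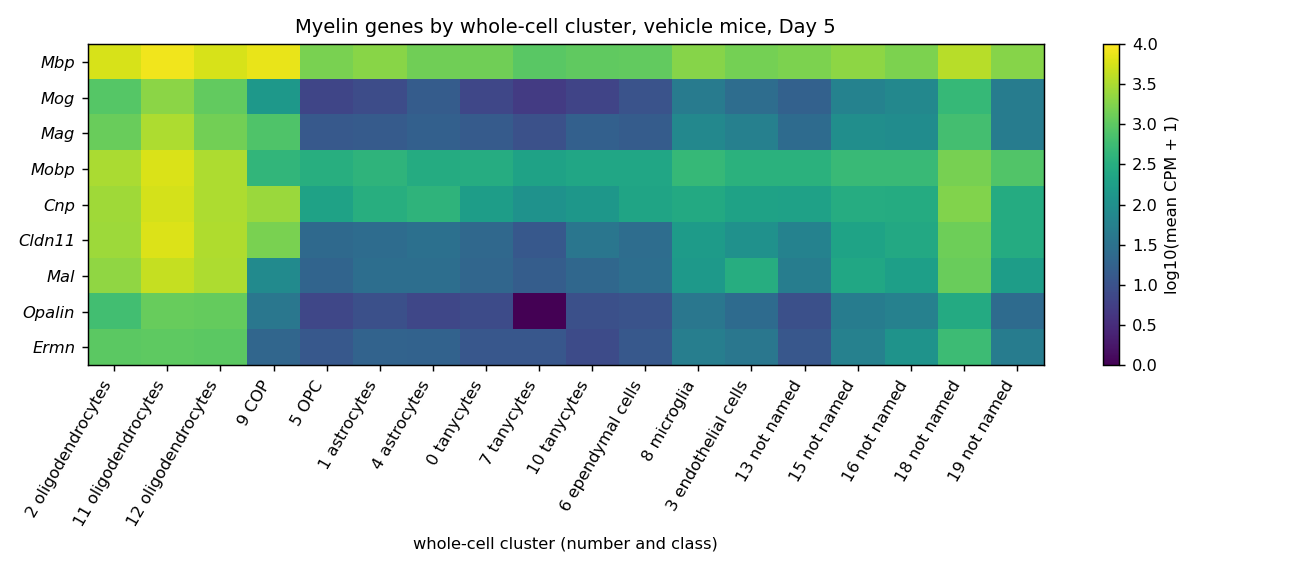
Level of the 9 myelin genes in each whole-cell cluster of vehicle mice, as log10 of the mean CPM plus 1 over mice (colour), with clusters named by their markers in columns. Clusters 2, 11 and 12 are high for all 9 genes, and cluster 9 (COP) is high for Mbp, Cnp and Cldn11 but low for Mal, Opalin and Ermn.

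Over the 18 clusters, each gene's log2(CPM + 1) profile correlated with the mean standardized profile of the 9 genes at r = 0.926 (Mbp) to 0.994 (Mog). Mbp and Ermn were the pair least alike (r = 0.776), and Mag and Cldn11 the pair most alike (r = 0.988). Outside the set, the genes with the closest profiles included Aplp1 (r = 0.973), Tmem88b (0.966), Plekhh1 (0.965), Abca2 (0.956), Kctd13 (0.954), Ypel2 (0.952), Tprn (0.951), Grb14 (0.9502) and Lgi3 (0.948). Kctd13 had its highest mean in cluster 2 and the others named had theirs in cluster 11. The clusters share the same mice, libraries and depth, so the correlations describe these libraries alone.

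Some myelin RNA was counted in cells that do not make myelin. In vehicle mice Mbp averaged 1237 CPM in tanycytes, the ependymal-like glia that line the floor of the ventricle, 1919 in astrocytes, 1077 in ependymal cells, 1890 in microglia and 1432 in endothelial cells. For each 100 Mbp UMIs, 22.4 Mobp UMIs were counted in tanycytes, 19.8 in astrocytes, 19.4 in OPC, 21.4 in ependymal cells, 25.9 in microglia and 24.1 in endothelial cells. These Mobp ratios lie close together, below the 55.9 ± 5.14 of oligodendrocytes and above the 5.22 ± 3.37 of COP. The ratios of other genes to Mbp were less even over the same cell types. Cldn11 ran from 1.34 in astrocytes to 9.02 in microglia and Mag from 0.785 to 4.84 in the same 2 types. Cnp ran from 15.5 in endothelial cells to 30.2 in ependymal cells. Mal stood apart from the other genes in endothelial cells, at 313 ± 57.9 CPM against 18.9 ± 5.73 in tanycytes. Whether the myelin RNA in these cell types is free RNA taken up by droplets or made by the cells was not tested.

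On Day 5, whole-cell oligodendrocytes of FGF1 mice had higher levels of 4 of the 9 myelin genes than those of vehicle mice: Mal, Cldn11, Opalin and Mog. UMIs were summed per mouse, scaled to CPM with TMM factors and compared with edgeR's quasi-likelihood test, in which FDR is the p adjusted over all genes tested (called: FDR below 0.05). Mal ran from 2242 to 3100 CPM in vehicle mice (median 2371) and from 2767 to 5504 in FGF1 mice (median 4351). FGF1 mice 7, 10 and 21 were above every vehicle mouse, at 5504, 5445 and 5241 CPM, and the groups overlapped through FGF1 mouse 28. The difference was 0.77 ± 0.16 (log2 fold change ± SE, FDR = 0.00952). Cldn11 ran from 2490 to 3384 CPM (median 2939) in vehicle mice and from 3372 to 6385 (median 4780) in FGF1 mice, a difference of 0.69 ± 0.15 (FDR = 0.0132). The lowest FGF1 mouse sat just under the highest vehicle mouse. Opalin ran from 591 to 999 CPM (median 710) in vehicle and from 759 to 1550 (median 1321) in FGF1 mice, a difference of 0.73 ± 0.17 (FDR = 0.0326). Mog ran from 838 to 1251 CPM (median 961) in vehicle and from 995 to 1857 (median 1529) in FGF1 mice, a difference of 0.57 ± 0.15 (FDR = 0.0464). The other 5 genes did not pass. Mbp averaged 6075 ± 1384 CPM in vehicle and 7946 ± 1542 in FGF1 mice (0.39 ± 0.15, FDR = 0.165), Cnp 2988 ± 403 and 3812 ± 748 (0.35 ± 0.13, FDR = 0.143), and Ermn 1025 ± 190 and 1272 ± 203 (0.31 ± 0.13, FDR = 0.197). Mobp averaged 3363 ± 708 and 3910 ± 1024 CPM (0.22 ± 0.16, FDR = 0.518). Mag, the axon-side receptor, averaged 1358 ± 96.4 and 1340 ± 129 CPM, a difference of -0.02 (FDR = 0.960) with a 95% interval from -0.26 to 0.21.

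**Figure D2:**
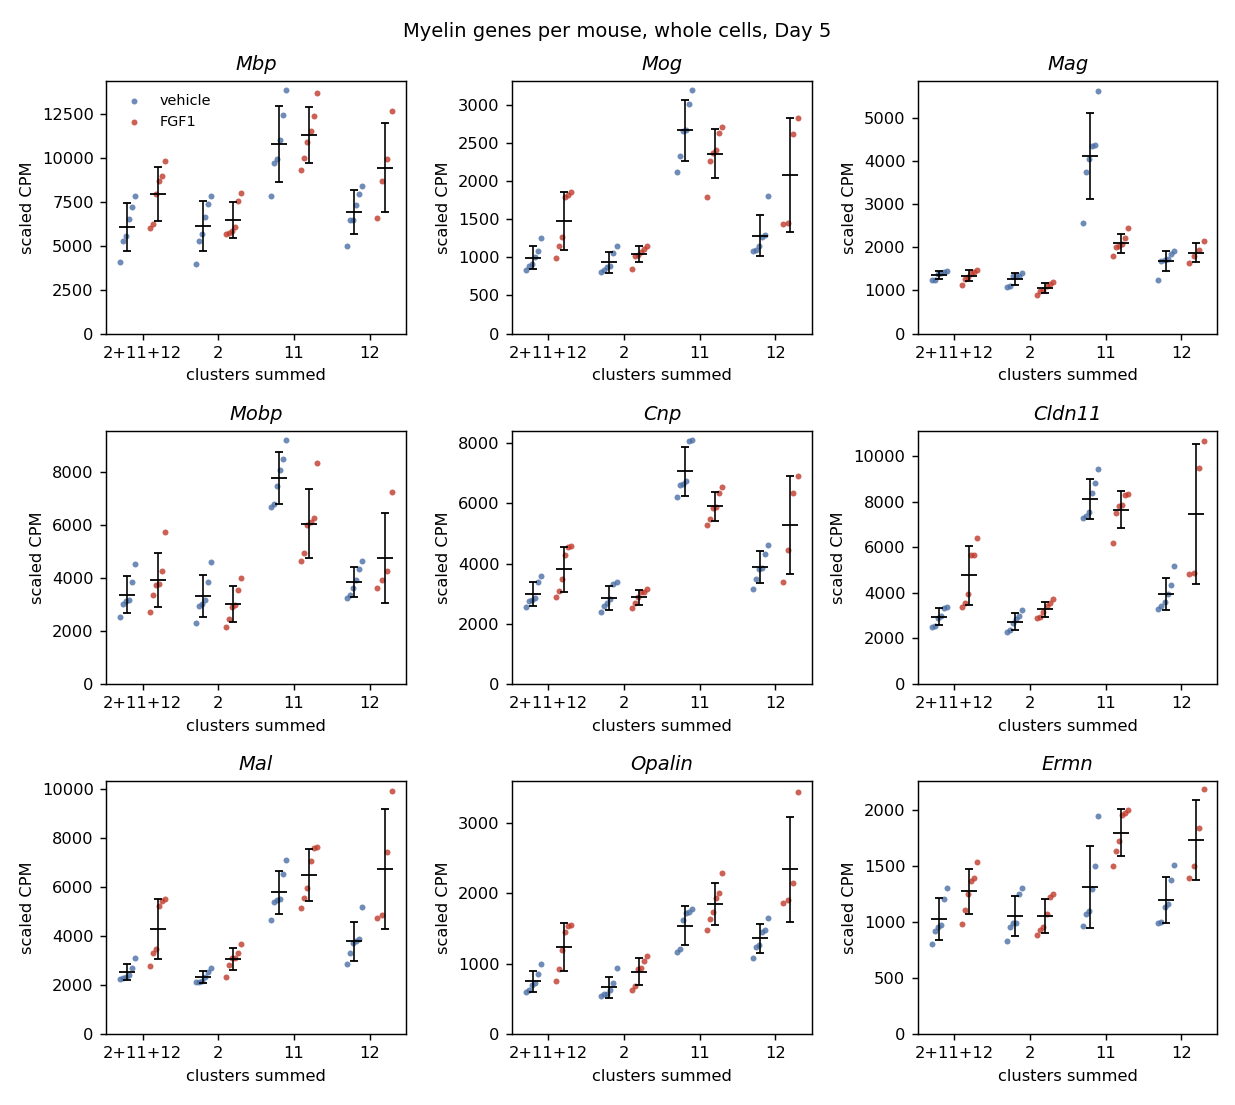
Scaled level (CPM, TMM) of the 9 myelin genes in whole-cell oligodendrocytes on Day 5, 1 point per mouse with mean and SD bars, for clusters 2, 11 and 12 summed and for each alone. CPM is taken over the genes that passed the filter in each sum, so heights are not comparable between clusters. In the sum Mal, Cldn11, Opalin and Mog are higher on average in the 6 FGF1 mice than in the 6 vehicle mice and Mag covers the same range in both, whereas in cluster 11 Mag is lower in every FGF1 mouse.

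Read against the background, 2.25% of the 8438 genes tested in these cells were called, 95 higher and 95 lower, and 4 of the 9 myelin genes were called higher and none lower. The median log2 fold change was 0.39 over the 9 genes and -0.00 over all genes tested. Each of the 6 batch numbers in the deposited cell table held 1 FGF1 and 1 vehicle mouse. Whether mice that share a batch number are alike was not tested in whole cells. Within these pairs the FGF1 mouse was higher in 6 of 6 for Mal, Cldn11 and Opalin, in 5 of 6 for Mog, Mbp, Cnp and Ermn, in 4 of 6 for Mobp and in 3 of 6 for Mag. Other markers moved with these levels. The 8 oligodendrocyte markers outside the 9 genes summed to 24292 to 32597 CPM in vehicle and 34727 to 53654 in FGF1 mice, and neuron markers to 396 to 695 and 224 to 499.8. Their part in the result was not tested. Mal and Cldn11 were called in each of the 12 fits that left out 1 mouse. Mog and Opalin were called in 5 of the 12 and lost the call without vehicle mouse 20, 25, 27 or 29 or FGF1 mouse 7, 10 or 21, with FDR up to 0.126 and 0.0868. The shares of cells with a UMI were compared as a description. With each cell thinned to 800 UMIs (6692 of 6728 vehicle and 3216 of 3234 FGF1 oligodendrocytes were deep enough), Mog was found in 50.2% of vehicle and 63.2% of FGF1 oligodendrocytes (68.0% and 79.9% unthinned) and Opalin in 40.2% and 54.0% (55.0% and 69.1% unthinned). In tanycytes, which should lack both, the thinned shares were 0.499% and 0.564% for Mog and 0.484% and 0.338% for Opalin. Median UMIs per cell ran from 1104 to 2401 over the mice in oligodendrocytes and from 1136 to 2411 in tanycytes.

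The makeup of the oligodendrocytes differed between the groups. Cluster 11, in which the vehicle levels of these genes were highest, made up 0.964% to 7.62% of each vehicle mouse's oligodendrocytes. In FGF1 mice 10, 21, 7, 6, 28 and 36 it made up 81.3%, 66.0%, 47.8%, 23.4%, 23.2% and 11.3%. The 3 FGF1 mice with the largest shares are the 3 with the highest Mal and Cldn11. Oligodendrocytes were 13.9% to 26.5% of all cells in vehicle and 7.70% to 16.0% in FGF1 mice, and both clusters moved as shares of all cells. Cluster 11 was 0.252% to 1.74% of all cells in vehicle and 1.501% to 10.4% in FGF1 mice, with an overlap of 1 mouse in each group, and cluster 2 was 11.5% to 22.0% and 1.99% to 11.9%. With cluster 11 left out, an alternative chosen after these shares had been seen, none of the 9 genes was called. Mal was then higher by 0.47 (FDR = 0.0880), Opalin by 0.44 (FDR = 0.281), Cldn11 by 0.37 (FDR = 0.192) and Mog by 0.23 (FDR = 0.494), while Mobp turned to -0.09. Counts over all oligodendrocytes therefore describe a mixture whose proportions moved together with the levels.

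**Figure D3:**
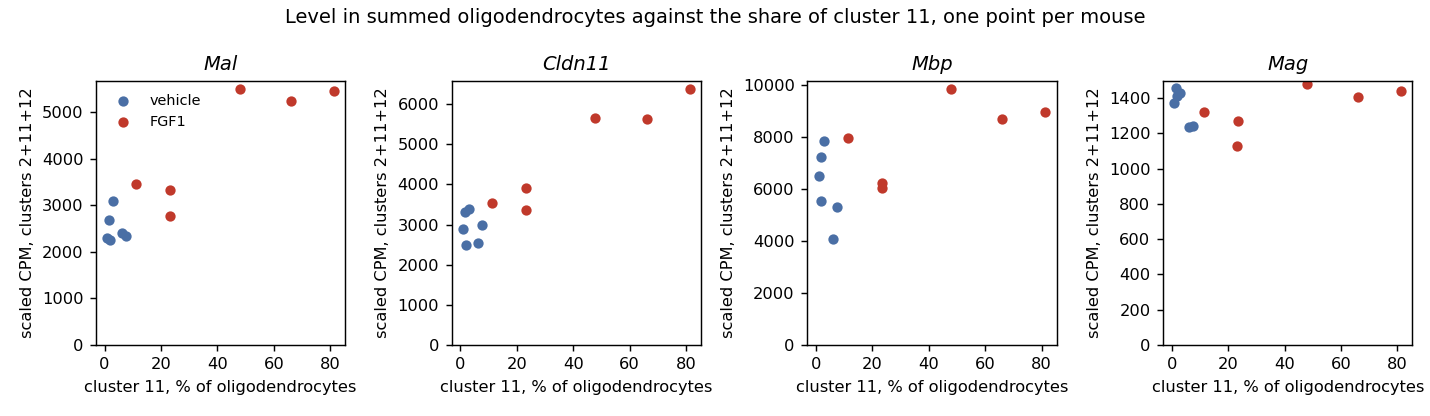
Scaled level (CPM) of Mal, Cldn11, Mbp and Mag in each mouse's oligodendrocytes against the percent of those cells in cluster 11, whole cells, Day 5, 6 vehicle and 6 FGF1 mice. Vehicle mice lie at 0.964% to 7.62% and FGF1 mice at 11.3% to 81.3%. Mal and Cldn11 are highest in the 3 FGF1 mice with the largest shares.

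In clusters 2 and 11 the log2 fold changes of the 9 genes had both signs. In cluster 2, the largest, 0.904% of 7187 genes were called and none of the 9 was (866 genes had an unadjusted p under 0.05, 4 of the 9 among them). Mal was nearest, at 2314 ± 237 CPM in vehicle and 3048 ± 453 in FGF1 mice (0.40 ± 0.11, FDR = 0.0927), and was higher in 6 of 6 batch pairs. Mag had a lower mean in FGF1 mice there, at 1265 ± 137 and 1057 ± 114 CPM (-0.26 ± 0.11, FDR = 0.321). The log2 fold changes of the other 7 genes there were 0.41 for Opalin, 0.26 for Cldn11, 0.15 for Mog, 0.08 for Mbp, 0.01 for Cnp, -0.00 for Ermn and -0.14 for Mobp. Without FGF1 mouse 28, Mal was called in cluster 2, and without vehicle mouse 35, Opalin was. In cluster 11, 6.63% of 1613 genes were called, and of the 9 genes only Mag was, and it was lower. Mag was at 2567, 3760, 4040, 4346, 4386 and 5624 CPM in the vehicle mice and at 1788, 2013, 2038, 2076, 2208 and 2455 in the FGF1 mice. The groups did not overlap, and the difference was -0.98 ± 0.15 (FDR = 6.27e-05). Non-overlap of this kind was seen for 2.42% of the genes tested in cluster 11. Mag was lower in 6 of 6 batch pairs and was called in each of the 12 fits that left out a mouse. The vehicle values rest on 17 to 56 cells per mouse and the FGF1 values on 89 to 487. Clusters were formed on cells taken after treatment. Cluster 11 held 0.964% to 7.62% of oligodendrocytes in vehicle mice and 11.3% to 81.3% in FGF1 mice. Whether a cluster holds like cells in both groups was not tested, here or in clusters 2 and 12. Ermn was at 1310 ± 363 and 1796 ± 208 CPM in cluster 11 (0.47 ± 0.15, FDR = 0.0511), higher in 6 of 6 pairs, and passed the threshold without vehicle mouse 35 (FDR = 0.00315) or without FGF1 mouse 6 or 28. Mobp (7772 ± 982 and 6031 ± 1301 CPM, -0.37 ± 0.15, FDR = 0.128) and Cnp (7074 ± 812 and 5903 ± 481, -0.26 ± 0.13, FDR = 0.249) were lower in 6 of 6 pairs without being called. Mobp passed without FGF1 mouse 7 (FDR = 0.0390). The remaining log2 fold changes in cluster 11 were 0.28 for Opalin, 0.16 for Mal, 0.06 for Mbp, -0.09 for Cldn11 and -0.17 for Mog.

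The difference between clusters was tested itself, in an edgeR fit with the mouse as a block that was added after the values above had been seen (2.93% of 4438 genes called). The FGF1 effect on Mag was lower in cluster 11 than in cluster 2 by 0.63 ± 0.12 on the log2 scale (-0.63, FDR = 0.000130), and that on Ermn was higher by 0.57 ± 0.13 (FDR = 0.00309). No other gene of the 9 was called in this test, and the nearest were Cldn11 (-0.27, FDR = 0.145) and Mog (-0.25, FDR = 0.289). Cluster 12 was measured in 4 FGF1 and 6 vehicle mice with at least 10 such cells, and only 0.0888% of 2251 genes were called there. All 9 genes had a log2 fold change above 0 and none was called. With the batch number as a block, which pairs each FGF1 mouse with a vehicle mouse, 4 were called: Cldn11 (0.76, FDR = 0.00432), Opalin (0.71, FDR = 0.00673), Mal (0.64, FDR = 0.0284) and Mog (0.59, FDR = 0.0338). Each of these was higher in 4 of 4 pairs. The 0.0888% belongs to the fit without the block. The shares of all genes called with the block, or without single mice, are not reported here. The FGF1 values rest on 19, 26, 36 and 130 cells per mouse and the vehicle values on 30 to 436. Opalin did not overlap between the groups, at 1083 to 1650 CPM in vehicle and 1861 to 3451 in FGF1 mice (0.76 ± 0.17, FDR = 0.0538), and neither did 3.47% of all genes tested there. Cldn11 (3951 ± 702 and 7448 ± 3059 CPM, FDR = 0.0686) and Mal (3788 ± 793 and 6736 ± 2467, FDR = 0.0744) were close behind. In the fit without the block, leaving out a mouse added calls: without vehicle mouse 35, 4 of the 9 genes were called in cluster 12, without FGF1 mouse 6 there were 3, without FGF1 mouse 36 there were 2, and without vehicle mouse 22 or FGF1 mouse 7 there was 1.

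**Figure D4:**
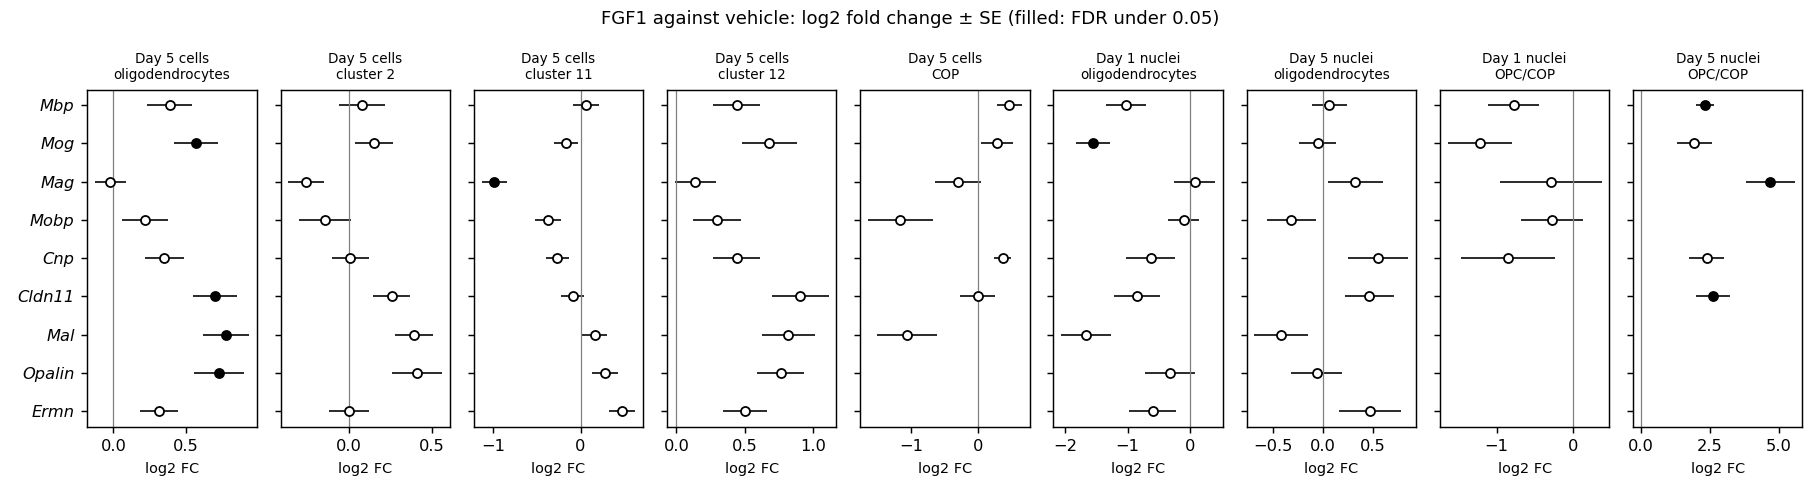
Log2 fold change of FGF1 over vehicle for the 9 myelin genes in each lineage comparison, with bars of ± SE from edgeR's fit, for whole cells on Day 5 and nuclei on Day 1 and Day 5. Genes too low to be tested have no point. Each panel has its own x scale, and filled points are called at FDR below 0.05. Mag is the gene called lower in cluster 11, and Mog the gene called lower in Day 1 nuclear oligodendrocytes.

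Committed precursors were more abundant in FGF1 mice, 3.64% to 11.6% of cells against 0.290% to 0.917% in vehicle mice, but no myelin gene was called within them (1.25% of 4171 genes called, 520 with an unadjusted p under 0.05). Of the 9 genes 7 passed the filter on low counts. Mbp averaged 8177 ± 2551 CPM in vehicle and 11295 ± 2055 in FGF1 mice (0.47 ± 0.19, FDR = 0.287), and passed without vehicle mouse 20 (FDR = 0.0148). Cnp averaged 2810 ± 567 and 3606 ± 250 CPM (0.37 ± 0.13, FDR = 0.197) and was higher in 6 of 6 batch pairs. Cldn11 stood at 1743 ± 910 and 1709 ± 197 CPM, with a 95% interval of the difference from -0.58 to 0.58, and Mog at 149 ± 61.0 and 175 ± 17.6. Mal, Mobp and Mag had lower means in FGF1 mice without being called. Mal averaged 89.4 ± 64.0 CPM in vehicle and 38.9 ± 18.7 in FGF1 mice (-1.06 ± 0.45, FDR = 0.296), Mobp 484 ± 405 and 208 ± 63.5 (-1.16 ± 0.49, FDR = 0.366) and Mag 875 ± 528 and 669 ± 131 (-0.29 ± 0.35, FDR = 0.779). Opalin (12 UMIs in vehicle and 100 in FGF1 mice) and Ermn (8 and 57) were too low to be tested. The vehicle values rest on 16 to 51 COP cells per mouse, and their spread over mice was wider than that of FGF1 mice for each of the 7 genes tested. The FGF1 effect on Mal differed between COP and oligodendrocytes, lower in COP (-1.63 ± 0.37, FDR = 0.00179, 2.34% of 7742 genes called), though no call was left without vehicle mouse 20, and without vehicle mouse 35 there were 2.

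In OPC, 3.24% of 5529 genes were called, and of the 9 genes only Mbp, Mobp and Cnp were counted often enough to be tested. Mbp averaged 1758 CPM in vehicle and 1547 in FGF1 mice (-0.19, FDR = 0.813), Mobp 350 and 276 (-0.38, FDR = 0.646) and Cnp 225 and 250.5 (0.16, FDR = 0.557). None was called, and 967 of all genes had an unadjusted p under 0.05. The FGF1 effect on the 9 genes did not pass the test of a difference between OPC and oligodendrocytes (2.11% of 8764 genes called). Ermn came nearest, at -1.18 ± 0.39 (FDR = 0.110), and 1 gene of the 9 was called without vehicle mouse 35 or FGF1 mouse 21. Genes too low to be tested in OPC alone entered this fit through their oligodendrocyte counts. Ermn rests there on 43 UMIs in OPC of vehicle mice and 14 in OPC of FGF1 mice. With so few counts, the test cannot decide whether the effect on such genes differs between OPC and oligodendrocytes.

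In cell types that do not make myelin, Cnp and Ermn changed in astrocytes, which pool clusters 1 and 4. Astrocytes had the largest share of called genes, 12.6% of 9830. Cnp ran from 301 to 414 CPM in vehicle mice (median 322) and from 478 to 611 in FGF1 mice (median 546), a difference of 0.66 ± 0.11 (FDR = 0.000153). The groups did not overlap, which held for 5.16% of all genes tested in astrocytes. Every FGF1 mouse was above its batch partner, and the call held in each of the 12 fits without 1 mouse. A Cnp UMI was found in 31.5% of vehicle and 48.2% of FGF1 astrocytes, and in 22.9% and 35.1% with each cell thinned to 800 UMIs (8462 of 8637 and 4871 of 4943 cells deep enough). In tanycytes the thinned shares were 11.3% and 12.3%. Median UMIs per cell in astrocytes ran from 958.5 to 1543 over the mice. Ermn was low in astrocytes and fell from 18.5 ± 8.71 to 7.78 ± 2.59 CPM, a difference of -1.31 ± 0.32 (FDR = 0.00795), lower in 6 of 6 pairs. Most astrocytes sat in different clusters in the groups: vehicle mice had 7940 cells in cluster 1 and 697 in cluster 4, and FGF1 mice had 1531 and 3412. In plain CPM, Cnp averaged 323 ± 49.8 in vehicle and 430 ± 66.4 in FGF1 mice within cluster 1, and 398 ± 53.2 and 583 ± 52.6 within cluster 4. Ermn averaged 17.9 ± 8.35 and 3.06 ± 3.83 within cluster 1, and 16.99 ± 16.6 and 8.83 ± 3.49 within cluster 4. No test was run within these clusters, and the part of the makeup in the change of Cnp and Ermn was not tested. Mbp and Mobp did not pass in astrocytes and stood at 1990 ± 882 and 1339 ± 245 CPM (FDR = 0.258) and at 404 ± 202 and 221 ± 55.7 CPM (FDR = 0.138). Tanycytes (5.08% of 10494 genes called), ependymal cells (1.28% of 6734), microglia (0.262% of 2676) and endothelial cells (0.948% of 6329) had no call among the 8, 4, 6 and 8 of the 9 genes tested there. Ermn was lower in tanycytes in 6 of 6 pairs, at 10.5 ± 4.72 and 4.24 ± 2.38 CPM (-1.28 ± 0.38, FDR = 0.0549). The log2 fold changes of the genes tested ran from -1.28 (Ermn) to 0.18 (Cnp) in tanycytes, from -0.59 (Mobp) to 0.28 (Cnp) in ependymal cells, from -0.97 (Mal) to -0.12 (Cnp) in microglia and from -1.03 (Ermn) to 0.05 (Mal) in endothelial cells. In tanycytes 1 of the 9 genes was called without vehicle mouse 35 and 2 were without FGF1 mouse 28, and in endothelial cells 1 was called without vehicle mouse 35. Mal in endothelial cells was at 331 ± 54.0 and 348 ± 79.2 CPM, with an interval of the difference from -0.25 to 0.35. Oligodendrocytes made up a larger share of the cells in vehicle mice, as given above, and the part of free RNA in these values was not tested.

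In nuclei the 9 genes were counted far less. These nuclei came from frozen hypothalamic punches, and a sucrose gradient had removed debris and myelin. They took 0.0671% to 0.201% of the UMIs of each mouse's oligodendrocyte nuclei, against 1.72% to 3.55% in whole-cell oligodendrocytes. In vehicle oligodendrocyte nuclei Mbp averaged 552 ± 47.9 CPM (n = 5 mice), Mog 351 ± 59.6 and Mobp 248 ± 50.7, followed by Cldn11 at 178, Mag at 152, Mal at 115, Cnp at 78.6, Opalin at 72.3 and Ermn at 52.5. On Day 1, Mog was lower in FGF1 mice. It stood at 360, 292 and 351 CPM in vehicle mice 1, 2 and 3 and at 109, 137 and 87.2 in FGF1 mice 1, 2 and 3, with no overlap. The difference was -1.56 ± 0.27 (FDR = 0.0358), and only 0.222% of 7192 genes were called, 12 higher and 4 lower. Mal was also apart, at 97.3, 128 and 121 CPM in vehicle and 50.9, 37.6 and 10.9 in FGF1 mice, but was not called (-1.67 ± 0.40, FDR = 0.215). Mbp stood at 660, 504 and 567 CPM in vehicle and at 272, 411 and 153 in FGF1 mice (-1.02 ± 0.32, FDR = 0.584). With 3 mice a group, 11.3% of all genes tested did not overlap, and 3 of the 9 did not. Cldn11 averaged 190 and 101 CPM (-0.85), Cnp 91.8 and 58.8 (-0.63), Ermn 55.7 and 37.3 (-0.60), Opalin 51.3 and 41.7 (-0.33), Mobp 268 and 247 (-0.11) and Mag 160 and 166 (0.07), all with FDR of at least 0.849. The median over the 9 genes was -0.63, against 0.02 over all genes tested.

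The Day 1 call on Mog rests on 381 UMIs in vehicle and 123 in FGF1 mice and survived in 1 of 6 fits with a mouse removed, that without FGF1 mouse 1 (FDR up to 0.368 in the others), in which Mal was called as well. It was also lost with the batch number as a block (-1.60, FDR = 0.234) and in the nuclei with the least neuronal RNA (-1.45, FDR = 0.118). Deviations of mice of the same batch gave r = -0.34, 0.05 and -0.31 across genes. So few pairs of deviations from the group means cannot show whether batch had an effect. The summed oligodendrocyte markers overlapped between the groups, at 1412, 1719 and 899 CPM in the FGF1 mice and 1210, 1526 and 2320 in the vehicle mice. Oligodendrocyte nuclei with at least 2 UMIs of these markers made up 81.1%, 91.7% and 75.6% in FGF1 and 90.8%, 92.6% and 98.3% in vehicle mice. Whether the nuclei labelled oligodendrocytes held more of another cell type in FGF1 mice was not tested. On Day 5, with 2 mice a group, none of the 9 genes was called in oligodendrocyte nuclei (0.119% of 8407 genes called, all lower, and 573 with an unadjusted p under 0.05). Mog stood at 433 and 429 CPM in vehicle and 421 and 412 in FGF1 mice, and Mbp at 585 and 624.8 and at 635 and 624. Mal stood at 108 and 151 CPM in vehicle and 96.9 and 87.4 in FGF1 mice (-0.42, FDR = 0.821). Cnp, Cldn11 and Ermn were higher in 2 of 2 batch pairs, by 0.56 (FDR = 0.775), 0.47 (FDR = 0.769) and 0.48 (FDR = 0.825). Mag (0.33), Opalin (-0.06) and Mobp (-0.32) were not called either, and 5 of the 9 log2 fold changes were above 0. These intervals were wide, from -0.85 to 0.74 for Mog, in part because they take their degrees of freedom from these few mice alone. In a single fit over both days, the FGF1 effect on Mog was higher on Day 5 by 1.52 ± 0.36, but no gene passed (0% of 8914 called and 332 with an unadjusted p under 0.05, 6 of the 9 among them).

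**Figure D5:**
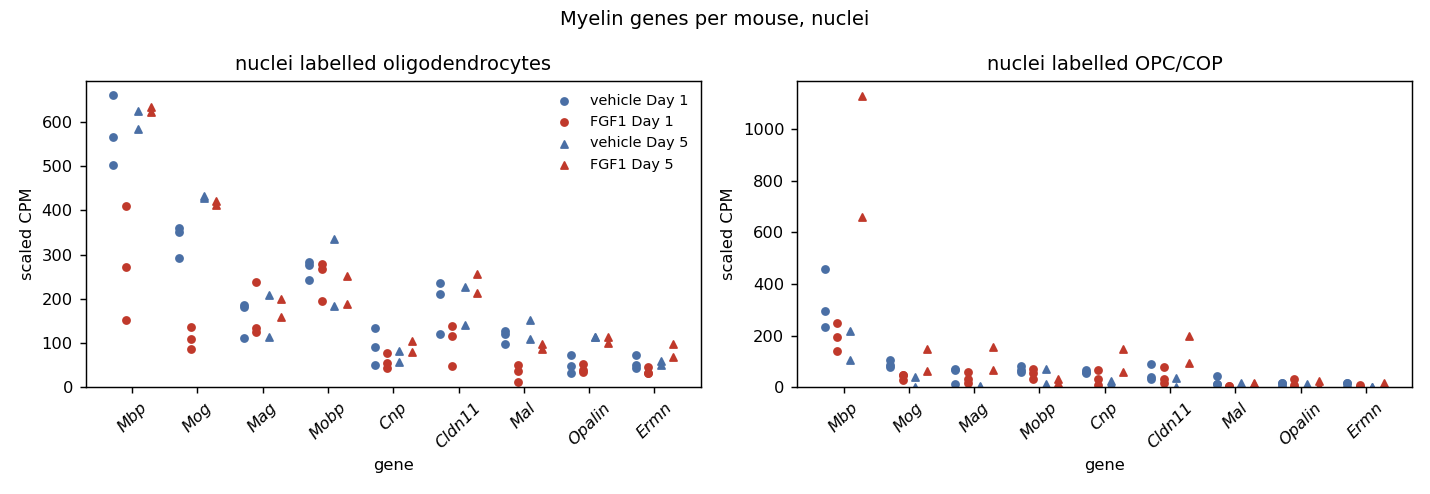
Scaled level (CPM, TMM) of the 9 myelin genes in nuclei labelled oligodendrocytes and OPC/COP, 1 point per mouse, vehicle and FGF1, on Day 1 (3 mice each) and Day 5 (2 mice each). CPM is taken over the genes that passed the filter for each label and day, so heights are not comparable between them. Mog is lower in all 3 FGF1 mice on Day 1 in oligodendrocytes, and Mbp in OPC/COP is higher in both FGF1 mice on Day 5.

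In nuclei labelled OPC/COP, 3 genes were called higher on Day 5 and none on Day 1, and the difference between the days was not tested. On Day 5, Mbp stood at 220 and 106 CPM in vehicle mice 28 and 38 and at 658 and 1130 in FGF1 mice 37 and 45, a difference of 2.33 ± 0.33 (FDR = 0.000113). Cldn11 stood at 35.6 and 0 CPM in vehicle and at 94.9 and 197 in FGF1 mice (2.62 ± 0.61, FDR = 0.0270). Mag was counted with 1 UMI of 274331 in the vehicle mice and with 116 of 1066225 in the FGF1 mice (FDR = 0.00464), a ratio of 29.8 with an exact 95% interval from 5.25 to 1189 that covers counting error only. Cnp (23.8 and 13.3 CPM in vehicle, 58.6 and 150 in FGF1 mice, FDR = 0.0646) and Mog (41.6 and 0, 61.4 and 148, FDR = 0.198) were higher in both FGF1 mice without being called. All 5 genes tested were apart between the groups, but so were 39.8% of all genes tested, and 1.28% of 5767 genes were called. The filter on low counts keeps a gene that is high enough in 1 group alone. Mag, Cldn11, Cnp and Mog, all low in vehicle mice, could pass it through the FGF1 mice. Those mice also had larger summed libraries, 404662 and 661563 UMIs against 190922 and 83409. The direction, separation and calls of these genes therefore rest partly on that selection. Mobp (13 UMIs in vehicle and 24 in FGF1 mice), Mal (3 and 15), Opalin (1 and 16) and Ermn (0 and 10) were too low to be tested. Leaving out FGF1 mouse 45 left 1 call, that of Mbp, and took those of Mag (FDR = 0.998) and Cldn11 (FDR = 0.456), while leaving out FGF1 mouse 37 gave 5. The size of the differences also turned on single mice: the log2 fold change of Mbp ran from 1.91 without FGF1 mouse 45 to 3.13 without vehicle mouse 28, and that of Cldn11 from 1.98 to 3.04 without FGF1 mouse 45 or 37, and without vehicle mouse 28 no Cldn11 UMI was left in vehicle mice. With the batch number as a block, Cldn11 was no longer called (FDR = 0.0874). The makeup of the label moved with these values: COP markers summed to 3507 and 4251 CPM in the FGF1 mice and 1503 and 1115 in the vehicle mice, and OPC markers to 1633 and 1025 against 2326 and 2146. The label held 85 and 202 nuclei in the FGF1 mice and 52 and 17 in the vehicle mice, and the part of this makeup in the rise of Mbp, Mag and Cldn11 was not tested. On Day 1, 0.0892% of 4485 genes were called there and none of the 5 tested of the 9 (266 genes had an unadjusted p under 0.05). Mog stood at 77.2, 106 and 87.4 CPM in vehicle and at 48.4, 27.8 and 48.8 in FGF1 mice, without overlap (-1.22, not called), as were 12.4% of all genes tested there, and Mbp averaged 329 and 194 CPM (-0.78, FDR = 0.829). Cnp (-0.85), Mag (-0.29) and Mobp (-0.28) were not called, and the other 4 were too low to be tested.

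Other genes of myelin and of the oligodendrocyte lineage were counted from lists put together by their known roles. In whole-cell oligodendrocytes on Day 5, 5 of 25 other myelin genes tested were called higher and none lower, with a median log2 fold change of 0.13, where 2.25% of all genes were called, 95 in each direction. For genes of myelin lipid synthesis it was 2 of 11 (median 0.20), for late oligodendrocyte genes 3 of 13 (median 0.39), for premyelinating genes 2 of 9 (median 0.37) and for transcription regulators of the lineage 1 of 15 (median 0.07), again with none lower. Within cluster 2 alone the counts were 1 of 25 (median -0.06), 0 of 11 (-0.01), 2 of 13 (-0.02), 1 of 8 (0.62) and 0 of 15 (-0.05) in the same order, all calls higher. The 3 called list genes with the largest change were Lims2, Il33 and Cryab. Lims2, a focal adhesion adaptor, rose from 38.8 ± 10.0 to 84.3 ± 20.9 CPM (1.07 ± 0.17, FDR = 0.00130), and Il33, an alarmin cytokine, from 269 ± 61.3 to 531 ± 139 (0.97 ± 0.17, FDR = 0.00593), both without overlap between the groups. Cryab, a small heat shock protein, rose from 1700 ± 578 to 2791 ± 541 CPM (0.71 ± 0.18, FDR = 0.0482). Unlike Mal and Cldn11, Il33 was also called within cluster 2 (0.83 ± 0.17, FDR = 0.0211) and within cluster 11 (1.95 ± 0.27, FDR = 0.000114), and on Day 1 it was called in oligodendrocyte nuclei, from 51.5 ± 13.6 to 342 ± 89.0 CPM (2.74 ± 0.33, FDR = 0.0079). Cryab was called in cluster 11 as well (0.55 ± 0.15, FDR = 0.0249). Neither Lims2 nor Cryab was particular to these cells: Lims2 was called in tanycytes (1.55 ± 0.29, FDR = 0.00320) and astrocytes (1.77 ± 0.25, FDR = 2.6e-05), and so was Cryab (0.68 ± 0.12, FDR = 0.00258, and 0.46 ± 0.12, FDR = 0.0119). In COP and OPC, Lims2 and Cryab were tested and not called and Il33 was too low to be tested. List genes were also called outside the lineage. In astrocytes (12.6% of all genes called) 5 of 20 other myelin genes were higher and 2 lower. There 3 of 13 late and 4 of 8 premyelinating genes were higher, 1 of 9 lipid genes lower, and of 12 regulators 1 higher and 2 lower. In tanycytes (5.08%) 4 of 12 late genes were higher and 1 lower, and 2 of 10 premyelinating genes higher. Of 18 other myelin genes 1 was higher and 2 lower, and 2 of 11 regulators were lower.

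Within cluster 11, 3 of 24 other myelin genes were called, all lower as Mag was, whereas 4 of 11 late oligodendrocyte genes were called there and all were higher. Of all genes 6.63% were called in cluster 11, 64 lower and 43 higher. Among the 3, and picked after its values were seen, Nfasc, whose glial form joins the sheath to the axon, changed by -1.11 ± 0.20. In OPC/COP nuclei on Day 5, 6 of 12 premyelinating genes and 4 of 15 other myelin genes were called higher. So were 2 of 7 regulators and 1 of 8 lipid genes. None of 4 late oligodendrocyte genes was called, and no list gene was called lower. COP markers were also higher in this label, where 1.28% of all genes were called, 49 higher and 25 lower. List genes low in vehicle mice could pass the filter on low counts through the FGF1 mice, whose libraries were larger. The direction and number of these calls therefore rest partly on that selection. Within COP in whole cells 2 of 19 other myelin genes and 2 of 12 premyelinating genes were called, all higher, and none of the other 3 lists (1.25% of all genes called), and within OPC 1 of 17 other myelin genes was called higher and 1 lower, 2 of 5 late oligodendrocyte genes higher, 1 of 9 premyelinating genes lower, 1 of 12 regulators lower and none of 7 lipid genes (3.24%). On Day 1 in oligodendrocyte nuclei 1 of 18 other myelin genes was called higher and 1 lower, 1 of 7 late oligodendrocyte genes higher, 1 of 10 lipid genes lower and none of the premyelinating genes or regulators (0.222%). On Day 5 in oligodendrocyte nuclei no list gene was called higher, and 1 of 9 late oligodendrocyte genes was called lower (0.119%).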

How the data were processed

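Processed files as deposited were used: raw UMI counts per gene and barcode for whole cells and for nuclei, with cell tables that give sample, cluster or cell type label, batch number and the percent of mitochondrial and ribosomal reads. Per the labels and the study's methods, the authors made the counts with Cell Ranger 1.2 on GRCm38 from 10x 3′ libraries (introns included for nuclei) and clustered them with Seurat, integrating nuclei across samples because of a strong batch effect. The deposited percent columns were used only for an alternative filter (20% in cells and 5% in nuclei).

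For each mouse, the UMI counts of all its cells of one type were added up (types with at least 10 cells in that mouse), and the sums were filtered with filterByExpr, scaled by TMM and tested with edgeR 4.0.16 (quasi-likelihood, robust) in R 4.3.3, FGF1 against vehicle and without covariates. FDR is the Benjamini-Hochberg adjusted p over all genes tested, and SE is the log2 fold change divided by the root of F. The study's own test was DESeq2 on summed counts, and DESeq2 1.42.0 was run as an alternative, and it gave no adjusted p for some low genes. Levels across cell types are plain CPM. Scaled CPM beside a test is taken over the genes that passed the filter in that comparison. It is therefore not comparable between cell types, clusters or days. Interactions between cell types used the mouse as a block, and that between days was fitted over the mice of both days. The scripts were tested on simulated data. The 9 genes and the gene lists were chosen with earlier results of these data known. All 9 genes were examined in every comparison, of which the text gives values or ranges, and by name the 3 called list genes with the largest change in Day 5 oligodendrocytes and the genes most alike among the first 10; other genes are said to be picked after seeing values, and some results are not reported here. Mice with the same replicate number on Day 1 gave r = -0.15, -0.27 and 0.20 between deviations from the group means. Mice that share a batch number there gave r = -0.34, 0.05 and -0.31. So few pairs cannot decide whether either number pairs the mice.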

Additional observations from a re-analysis of the deposited data

Results flagged for a closer look

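The effect of FGF1 differed between cell groups for 3 of the 9 genes in edgeR's test of the difference. For Mag it was lower in cluster 11 than in cluster 2, by -0.63 on the log2 scale, and for Ermn it was higher there, by 0.57. For Mal it was lower in COP than in all oligodendrocytes, by -1.63. That difference rests on 26 Mal UMIs in vehicle COP and was lost without vehicle mouse 20. It is taken against oligodendrocytes whose share of cluster 11 also moved.

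Of 99 groups of mice tested with Dixon's ratio for a mouse far from the others, 4 had one, where chance gives about 1 in 20 groups. In cluster 12, vehicle mouse 35 stood high for Mog, at 1810 scaled CPM, and vehicle mouse 27 low for Mag, at 1242. In COP, vehicle mouse 35 stood low for Cnp, at 1752 scaled CPM, and FGF1 mouse 21 low for Mag, at 405.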

How the results depend on the processing

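Of the values of single genes under all alternatives, 1097 kept their direction and their side of the threshold, 48 reversed, 43 passed the threshold that they had missed and 29 no longer passed. Counts of the 9 genes called moved as follows. The shares of all genes called in these fits, and in those without 1 mouse, are not reported here. The counts can therefore not be read against their own background. Without cluster 11 (chosen after seeing the data) Day 5 oligodendrocytes had 0. With DESeq2 cluster 2 had 1, cluster 11 had 2, cluster 12 had 2 and Day 5 OPC/COP nuclei 1, where Mag and Cldn11 had no adjusted p. With library sizes without myelin genes cluster 11 had 2. With no filter on low counts cluster 11 had 3, cluster 12 had 1, COP 2, Day 1 oligodendrocyte nuclei 2 and Day 5 OPC/COP nuclei 5. With at least 30 cells per mouse cluster 11 had 2 and COP 1. With RLE size factors cluster 12 had 1. With the batch number as a block cluster 12 had 4, Day 5 OPC/COP nuclei 2 and Day 1 oligodendrocyte nuclei 0, as these last had in the nuclei with the least neuronal RNA. With the replicate block, whose numbers were not shown to pair these mice, Day 1 oligodendrocyte nuclei also had 0 (Mog -1.58, FDR = 0.169). The causes were not tested.

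Leaving out 1 mouse, the count ran from 2 to 4 in Day 5 oligodendrocytes, 0 to 1 in cluster 2, 1 to 2 in cluster 11, 0 to 4 in cluster 12, 0 to 1 in COP, 0 to 2 in Day 1 oligodendrocyte nuclei, 1 to 5 in Day 5 OPC/COP nuclei, 0 to 2 in tanycytes, 0 to 1 in endothelial cells, 0 to 2 for the difference between COP and oligodendrocytes and 0 to 1 for that between OPC and oligodendrocytes. Where an arm was left with 1 mouse, it was taken to vary like the other group.

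Small values changed sign. Without cluster 11, Mobp was -0.087. With no filter, Cnp was -0.064 in cluster 2, Mog 0.14, Cnp 0.039 and Cldn11 0.21 in cluster 11, Mag 0.061 and Cldn11 0.35 in COP, and Mog 0.035 and Opalin 0.021 in Day 5 oligodendrocyte nuclei. Ermn in cluster 2 was 0.0098 with RLE, 0.019 within the mitochondrial limit and 0.0059 with the batch block. In COP, Mag was 0.11 and Cldn11 0.29 at 30 cells, and Cldn11 0.0032 within the limit and 0.086 with the batch block. In the nuclei with the least neuronal RNA, Mobp was 0.054 on Day 1 and Mog 0.059 on Day 5, and Mog was 0.0098 with DESeq2. Leaving out 1 mouse, Mag ran from -0.049 to 0.027 in Day 5 oligodendrocytes. Mbp ran from -0.025 to 0.16, Cnp from -0.046 to 0.060 and Ermn from -0.056 to 0.068 in cluster 2, Mbp from -0.0052 to 0.16 in cluster 11, and Mag from -0.44 to 0.050 and Cldn11 from -0.14 to 0.30 in COP. In Day 1 oligodendrocyte nuclei Mag ran from -0.31 to 0.24, Mobp from -0.21 to 0.017 and Opalin from -0.58 to 0.10. In those of Day 5 Mag ran from -0.17 to 0.70, Mobp from -0.57 to 0.31 and Opalin from -0.15 to 0.042, and in Day 1 OPC/COP nuclei Mag ran from -1.11 to 0.078. The minimum of 30 cells and the split by neuronal RNA could not be run in Day 5 OPC/COP nuclei, since too few nuclei were left. Depth limits low genes: Opalin, Mal and Ermn were counted with at most 16 UMIs per group in Day 5 OPC/COP nuclei, and were not tested there.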
